A study of Mus musculus with 8 samples.

Results

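Per1, Per2, Per3, Cry1, Cry2 and Ciart form the negative limb of the circadian clock, and their rows in a table of RNA-seq counts from whole mouse eyes are described here across WT mice and mice that lack the glucocorticoid receptor gene Nr3c1 in the retina. The members were chosen by symbol, and all 6 were found among the 32544 rows of the table and passed the filter on low counts, which 15373 genes passed. All mice were males of 12 weeks under cycles of 12 h light and 12 h dark. WT mice were Cre-negative, and the deletion mice, called cKO here and cNr3c1 in the labels, were Cre-positive. Eyes were taken every 6 h at ZT3, ZT9, ZT15 and ZT21, hours after lights-on, so ZT3 and ZT9 fall in the light and ZT15 and ZT21 in the dark. Each of the 8 libraries, 4 for a genotype, came from the pooled RNA of 3 mice, and no combination of genotype and time was repeated. The 4 times of a genotype serve as the replicates of its mean (n = 4 libraries, mean ± SD). The SD thus includes differences between times. Spread among pools of the same genotype and time was not measured, nor that among single mice. The p-value of the genotype test rests on how the genotype difference varied over the times, with pool noise mixed in. Those of the wave tests rest likewise on what the fitted terms leave over. In all of them edgeR draws the variance of a gene toward that of the other genes. No p-value therefore rests on the gene's own variation alone. The labels call the deletion retina-specific and do not name the promoter that drives Cre, nor which alleles of Nr3c1 the WT mice carry.

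In the mouse clock, the transcription factors CLOCK and BMAL1 bind E-box sequences and switch on the Per, Cry and Ciart genes. The PER and CRY proteins form a complex that enters the nucleus and blocks CLOCK and BMAL1, which closes a loop of about a day, and CIART, also called CHRONO, represses the same pair of activators. Genes with a D-box are also driven by DBP, TEF and HLF and held down by NFIL3. Glucocorticoid hormone is known to induce Per1 in several mouse tissues through the receptor that Nr3c1 encodes, and the retina has a clock of its own.

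Total counts ran from 11748995 to 20309611 per library. Levels are in CPM, counts scaled by library size with TMM adjustment. Nr3c1 ran from 78.2 to 145.1 CPM in WT and from 32.5 to 38.2 CPM in cKO, so the libraries went with their labels. The labels' tissue field names the ciliary body, whereas the protocols name whole eyes. The 7 rod markers took 4.41 to 5.27% of the counts of a library in WT and 4.45 to 4.96% in cKO, against 0.0856 to 0.112% for the 7 genes of ciliary epithelium and fluid transport over all libraries. The 7 lens markers took 4.51 to 6.48% in WT and 7.67 to 9.82% in cKO, without overlap, and the 5 erythrocyte markers 0.119 to 1.1% in WT and 0.0634 to 0.111% in cKO, also without overlap. The 5 Mueller glia markers took 0.177 to 0.376% in WT and 0.256 to 0.389% in cKO, with a median log2 difference of 0.62. DESeq2 called 4 of these 5 and 7 of the 7 lens markers higher in cKO and 0 of the 7 rod markers. It called 2 of the 5 erythrocyte markers lower, and 1 of 3 tested markers of the retinal pigment epithelium higher. Of all genes to which DESeq2 gave an adjusted p, it called 6.41%. Single genes without overlap between the genotypes were 6.89% of those tested. In each of these lists edgeR called 0. In whole eyes, fewer cells of a type and less RNA per cell cannot be told apart, and the part of these tissue differences in the results on the clock genes was not tested. The WT pools of ZT3, ZT9 and ZT21 held extreme levels most often. They had the highest of the 8 levels for 21.3, 22.0 and 15.0% of all genes tested and the lowest for 24.6, 15.9 and 17.2%. The other 5 libraries had the highest level for 4.61 to 11.1% and the lowest for 6.08 to 11.3%.

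**Figure D1:**
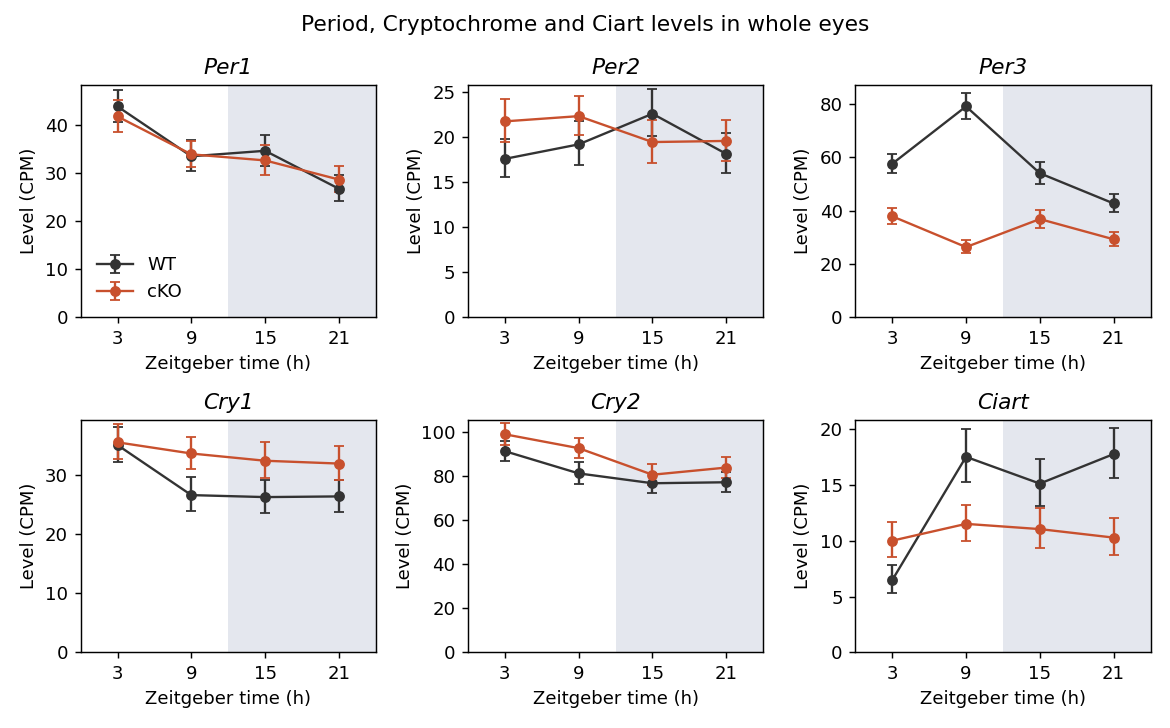
Levels of the 6 genes in CPM (y axes from 0) against zeitgeber time in h (x axes, dark phase shaded), with WT in black and cKO in orange; each point is 1 pool of 3 mice and the bars are 95% Poisson intervals, which cover counting error only. Per3 was lower in cKO at all 4 times, and Ciart stayed between 10.01 and 11.5 CPM in cKO. In WT, Ciart was at 6.47 CPM at ZT3 and at 15.1 to 17.8 CPM at the other times.

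Of the 6 repressors, Per3 was the gene whose levels separated WT from cKO. Per3, the member of the Period family that is least needed for rhythm in mice, stood in the WT pools of ZT3, ZT9, ZT15 and ZT21 at 57.5, 79.0, 54.0 and 42.7 CPM. The cKO pools of the same times, in this order as in what follows, held 37.9, 26.3, 36.8 and 29.3 CPM. All 4 cKO libraries lay below the lowest WT library. The mean was 32.6 ± 5.66 CPM in cKO against 58.3 ± 15.2 CPM in WT, and the log2 difference of cKO minus WT was -0.82 (SE 0.19). In edgeR's quasi-likelihood test, with time as a factor, the unadjusted p was 0.00346 and the adjusted p 0.157, so Per3 did not pass the threshold of 0.05. DESeq2 with the same design gave an adjusted p of 0.0119. The two-sided exact permutation p of the log2 levels was 0.0286, which no comparison of 4 with 4 libraries can go below. This test takes the 4 times as exchangeable, and one that swaps the genotypes only within a time has 16 arrangements and cannot go below 0.125.

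The Per3 difference was widest at ZT9. The difference of cKO minus WT was -0.60, -0.55 and -0.54 on the log2 scale at ZT3, ZT15 and ZT21, and -1.58 at ZT9, the time at which WT had its highest and cKO its lowest Per3 level. The 95% Poisson intervals of the genotypes were apart at all 4 times. At ZT9 697 of the 15373 genes tested (4.53%) were as low as Per3 or lower in cKO relative to WT, and at ZT21 1925 genes (12.5%) were. Lower at every time by at least the smallest of the Per3 differences were 79 genes (0.514%), Per3 among them. Without both ZT9 libraries the log2 difference was -0.57 with an adjusted p in edgeR of 0.355. The groups still did not overlap at the other 3 times.

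**Figure D2:**
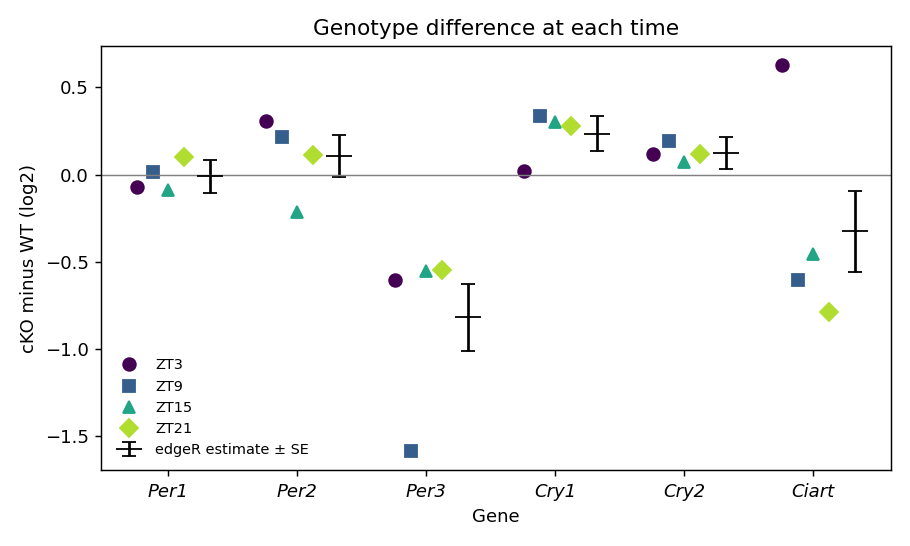
Difference of cKO minus WT in log2 CPM (y axis) for each of the 6 genes (x axis), with 1 symbol for each time and the edgeR estimate ± SE as a black bar. Per3 lies below 0 at all 4 times, with ZT9 at -1.58, and Ciart lies above 0 at ZT3 and below it at the other 3 times.

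Per3 spans bases 151003652 to 151044665 of chromosome 4, minus strand, in GENCODE M21 on GRCm38, and its longest transcript has 21 exons. Its interval overlaps the same-strand gene Camta1 with no exonic base in common. Camta1, chosen here for its place and named after its values were seen, averaged 235.6 ± 64.9 CPM in the WT libraries, against 173.9 ± 26.6 CPM in those of cKO. The promoters of 5 of the 6 members were in the RefSeq table used here (GRCm38.p6, 250 bases before to 50 after a start), with a pair of windows for Per1, and that of Per2 was not used here. The windows of Per3 and Ciart are shown because these are the genes with the widest differences between genotypes, and those of Per1 and Cry1 for comparison, with each 5′ to 3′ and the motif matches in capitals.
Per3, chr4:151044616-151044915, minus strand: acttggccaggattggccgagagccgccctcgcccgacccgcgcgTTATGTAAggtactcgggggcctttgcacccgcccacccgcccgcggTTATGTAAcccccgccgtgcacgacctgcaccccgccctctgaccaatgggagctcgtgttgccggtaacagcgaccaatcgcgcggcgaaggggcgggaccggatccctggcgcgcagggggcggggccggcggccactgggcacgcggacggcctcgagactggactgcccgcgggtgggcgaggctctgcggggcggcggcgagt
Ciart, chr3:95882179-95882478, minus strand: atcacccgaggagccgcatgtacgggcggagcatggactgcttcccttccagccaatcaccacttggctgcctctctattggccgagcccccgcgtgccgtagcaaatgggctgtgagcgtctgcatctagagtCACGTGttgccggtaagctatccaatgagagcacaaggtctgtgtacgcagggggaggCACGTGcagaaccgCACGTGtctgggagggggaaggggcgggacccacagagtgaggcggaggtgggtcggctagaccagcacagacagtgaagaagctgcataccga
Per1, chr11:69098699-69098998, plus strand: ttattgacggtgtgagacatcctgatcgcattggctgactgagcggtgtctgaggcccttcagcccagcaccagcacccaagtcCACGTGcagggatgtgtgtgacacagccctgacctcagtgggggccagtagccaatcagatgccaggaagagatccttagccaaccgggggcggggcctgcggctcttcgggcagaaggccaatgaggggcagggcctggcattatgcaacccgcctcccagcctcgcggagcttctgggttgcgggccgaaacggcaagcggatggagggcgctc
Cry1, chr10:85185005-85185304, minus strand: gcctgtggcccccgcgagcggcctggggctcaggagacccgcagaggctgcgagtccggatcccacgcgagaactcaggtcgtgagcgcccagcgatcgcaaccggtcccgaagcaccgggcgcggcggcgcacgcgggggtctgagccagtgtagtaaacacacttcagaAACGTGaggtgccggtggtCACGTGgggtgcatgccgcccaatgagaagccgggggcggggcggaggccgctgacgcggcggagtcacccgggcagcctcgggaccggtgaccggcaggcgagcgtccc

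The Per3 window held 2 copies of the D-box TTATGTAA, starting 205 and 158 bases before the start of the gene. Of all 32851 windows in the table, 0.938% held at least 1 copy of this motif on either strand and 7 windows (0.0213%) at least 2. The Ciart window held 3 copies of the E-box CACGTG, at 116, 58 and 44 bases before the start, a number reached by 29 of all windows (0.0883%). One E-box each was in the shown windows of Per1 and Cry1, against 7.15% of all windows with at least 1. The related motif CACGTT, read as AACGTG on the printed strand, was found once in the windows of Cry1 and Cry2 and in 4.68% of all windows. In the Cry1 window the matches of the E-box and of this motif lie apart, starting 60 and 79 bases before the start. A search for the cAMP response element TGACGTCA and for TTACGTAA found no match in the windows of the 5 genes, which says only that these letters are not in the windows. A match is a stretch of letters and was not measured as a bound site.

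Per1, a Period gene that light and glucocorticoid hormone can induce quickly, had close levels in the 2 genotypes. Its WT levels were 43.8, 33.5, 34.6 and 26.7 CPM, and its cKO levels 41.8, 33.9, 32.6 and 28.7 CPM. The genotypes overlapped, and in both the highest level was at ZT3 and the lowest at ZT21. The log2 difference was -0.01 (SE 0.09, adjusted p in edgeR 0.957), with a sign that turned to 0.0035 with DESeq2-type size factors. Per2, a core Period gene whose loss disturbs rhythm in mice, read 17.6, 19.2, 22.6 and 18.1 CPM in the WT pools. The cKO pools read 21.7, 22.3, 19.5 and 19.6 CPM. Its highest WT level was in the early night and its highest cKO level at the end of the light phase. The log2 difference was 0.11 (SE 0.12, adjusted p in edgeR 0.626), and it was -0.08 with total counts as the only scaling, which moved the median of all genes by -0.184.

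Per3 took a smaller share of the counts of the 3 Period genes in cKO. As Per1 and Per2 changed little, this restates the lower Per3 level and is not a separate result. Per3 made up 48.4, 60.0, 48.5 and 48.7% of these counts in WT at the 4 times and 37.4, 31.9, 41.4 and 37.8% in cKO. Each share carried a 95% Wilson interval within 2.8 percentage points to either side. The Per3 share of every cKO library was below that of every WT library, as its level was. Per1 made up 31.0 ± 4.68% in WT and 39.0 ± 2.47% in cKO, and Per2 17.6 ± 3.37% and 23.9 ± 2.70%.

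Ratios of 2 members within a library do not depend on how the library was scaled, and all 15 pairs were compared between the genotypes. The log2 ratio of Per3 to Per1 was 0.74 ± 0.36 in WT and -0.08 ± 0.23 in cKO, that of Per3 to Per2 1.56 ± 0.39 and 0.64 ± 0.30. Against the Cryptochromes, the log2 ratio of Per3 to Cry1 was 1.01 ± 0.41 in WT and -0.05 ± 0.24 in cKO, and that of Per3 to Cry2 -0.52 ± 0.35 and -1.46 ± 0.29. In these 4 pairs the libraries of the genotypes did not overlap, and the two-sided exact permutation p was 0.0286, the smallest possible, or 0.107 adjusted over the 15 pairs. All 4 use the same Per3 counts, so they are not separate results. Without both ZT9 libraries the differences of these ratios were -0.55, -0.63, -0.77 and -0.67. The ratio of Per3 to Ciart overlapped between genotypes (difference -0.52, exact permutation p = 0.286). Among the 10 pairs without Per3, none separated the genotypes, and the exact permutation p ran from 0.0571 to 0.886.

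**Figure D3:**
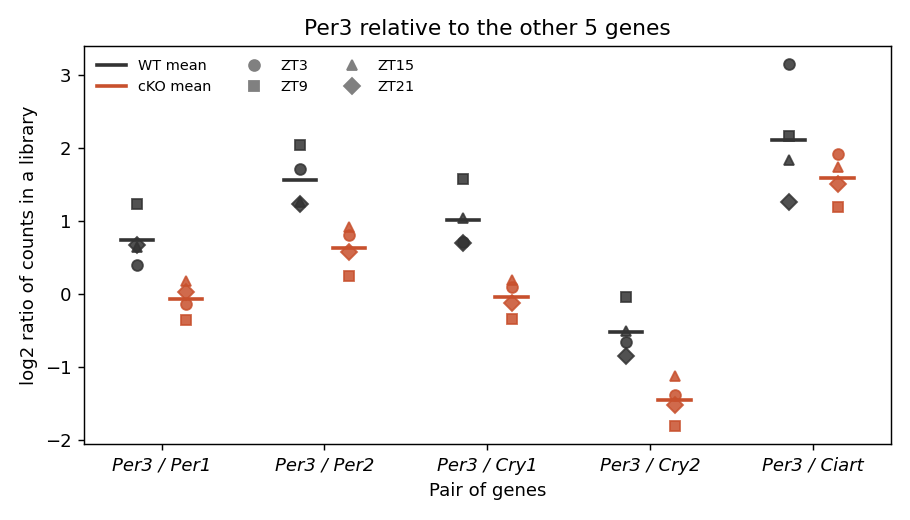
Log2 ratio of Per3 counts to those of each of the other 5 genes in the same library (y axis), by pair (x axis), with WT in black, cKO in orange, 1 symbol for each time and bars at the means. The 4 cKO points lie below the 4 WT points for Per1, Per2, Cry1 and Cry2, and overlap them for Ciart.

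The Cryptochromes were slightly higher in cKO at 4 of 4 times, and neither passed the test. Cry1, a strong repressor that delays the loop, stood at 35.0, 26.5, 26.2 and 26.3 CPM in the WT pools and at 35.5, 33.6, 32.3 and 31.9 CPM in the cKO pools. The WT level of ZT3 stood above the other 3 WT times, which lay close together, and the cKO levels spread less. The log2 difference of Cry1 was 0.23 (SE 0.10), with an unadjusted p of 0.0532 and an adjusted p of 0.237 in edgeR. With total counts as the only scaling it was 0.05 (adjusted p in edgeR 0.737). The Cry1 difference was 0.02 at ZT3, and the later times gave 0.28 to 0.34. At 2 of these later times the intervals, which cover counting error only, were apart. Cry2, its paralog, measured 91.3, 81.2, 76.7 and 77.2 CPM in WT pools, against 99.0, 92.7, 80.6 and 83.8 CPM in cKO pools. Both genotypes had the highest Cry2 level at ZT3 and the lowest at ZT15. Its log2 difference was 0.12 (SE 0.09, adjusted p in edgeR 0.447) and became -0.06 with total counts as the only scaling. Cry1 made up 25.8 ± 1.33% of the Cryptochrome counts in WT and 27.3 ± 1.03% in cKO. Cry2 shares 295 exonic bases with D930015M05Rik on the opposite strand (GENCODE M21), and as the labels do not say whether the libraries keep the strand, reads there cannot be assigned to one of them for certain.

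Ciart levels lay close together in cKO, whereas in WT the ZT3 library stood apart below the other 3. Its WT levels over the 4 times were 6.47, 17.5, 15.1 and 17.8 CPM. Its cKO levels were 10.01, 11.5, 11.1 and 10.3 CPM. The lowest and the highest of the 8 libraries were thus both WT, and the 4 cKO libraries lay between them. At ZT3 cKO was higher than WT by 0.63 on the log2 scale, and at ZT9, ZT15 and ZT21 the log2 difference was -0.60, -0.45 and -0.79. Counting intervals, which leave out the spread among pools, were apart at each of the 4 times, with 106 to 250 counts per library. How often this was so over all genes was not counted. The same order of signs was seen in 1899 of the 15373 genes (12.4%). The mean log2 difference was -0.32 (SE 0.23), with an adjusted p of 0.437 in edgeR, and DESeq2 gave Ciart no adjusted p. Leaving out both ZT3 libraries changed it to -0.60 with an adjusted p of 0.0892, and leaving out the ZT21 library of WT or of cKO to -0.15 or -0.16. The highest WT level was 2.75 times the lowest, against 1.15 times in cKO. That lowest level was in the WT ZT3 library, which held the lowest of the 8 levels for 24.6% of all genes.

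Read against all genes, the edgeR calls among the 6 repressors were about as frequent as elsewhere. In edgeR 0 of 6 passed an adjusted p of 0.05, as did 0% of the 15373 genes tested. At an unadjusted p under 0.05 Per3 was the 1 member of 6 (16.7%) and was lower, a share near the background of 21.5% in either direction, 11% being lower. DESeq2 called 1 of the 5 members to which it gave an adjusted p, again Per3, against a background of 6.41%, of which 1.75% were lower. Libraries of the genotypes did not overlap for 1 of 6 members and for 6.89% of all genes, 3.16% with cKO lower. One member was lower at 4 of 4 times (15.1% of all genes) and 2 were higher at 4 of 4 times (15.7%). The median log2 difference of the 6 was 0.05 and that of all genes -0.03.

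Compared per kilobase of annotated exon, Cry2 was the most abundant of the 6 in both genotypes, with 12.9 ± 1.07 CPM per kb in WT and 14.1 ± 1.32 in cKO. Cry1 had the next highest mean, with 8.54 ± 1.29 CPM per kb in WT and 9.97 ± 0.48 in cKO. In WT its spread overlapped those of Ciart, Per1 and Per3. The spreads given here include differences between times, and levels per kb were not compared library by library, so overlap does not show equal levels. In WT the levels of Ciart (6.30 ± 2.35 CPM per kb), Per1 (6.16 ± 1.25) and Per3 (6.07 ± 1.58) did not differ beyond their spread, and Per2 was lowest with 3.31 ± 0.38. In cKO the order below Cry1 was Per1 (6.08 ± 0.98 CPM per kb), Ciart (4.74 ± 0.31), Per2 (3.55 ± 0.25) and Per3 (3.39 ± 0.59). The last pair in cKO did not differ beyond its spread. The lengths are those of all annotated exons together, 9608 bases for Per3 and 2261 for Ciart, so the order rests on which transcripts the eye uses.

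The next question was whether the 6 genes followed the day, as clock genes do in many tissues. A cosine wave of 24 h shared by both genotypes passed an adjusted p of 0.05 in edgeR for 0 of 6 members, as for 0% of all genes, and at an unadjusted p under 0.05 for 0 of 6 against a background of 17.8%. DESeq2 called 0 of 6, against 4.48% of the genes to which it gave an adjusted p. The fitted peak-to-trough fold was 1.37 for Per1, 1.13 for Per2, 1.34 for Per3, 1.22 for Cry1, 1.23 for Cry2 and 1.52 for Ciart. Their median of 1.28 lay below the median of 1.38 over all genes, and 1 of 6 was above 1.5, against 37.9% of all genes. The Ciart and Per3 folds rested on single libraries, and the Cry1 fold on ZT3. On the log2 scale the Ciart wave was 0.61 from peak to trough, and 0.047 without the WT ZT3 library, which leaves Ciart under a fold of 1.5. The Per3 wave was 0.42, and it was 0.12 without the WT ZT9 library, 0.17 without the WT ZT21 library and 0.85, above a fold of 1.5, without the cKO ZT9 library. The Cry1 wave was 0.28, and it was 0.11 without the WT ZT3 library and 0.027 without both ZT3 libraries. With 4 times the wave is a contrast of light and dark and of the times around lights-on and lights-off.

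On average over the times, Per1 was higher in the light by 0.32 on the log2 scale (SE 0.15), with 0.33 in WT and 0.30 in cKO. This Per1 difference came mainly from ZT3 against ZT21. At ZT9 the WT pool held 33.5 CPM, slightly below its ZT15 level of 34.6 CPM. For cKO the ZT9 level was 33.9 CPM, slightly above the 32.6 CPM of ZT15. Cry2 was higher in the light by 0.19 (SE 0.09), with 0.16 in WT and 0.22 in cKO, and Cry1 by 0.16 (SE 0.11), with 0.21 and 0.10. In WT the Cry1 level was 35.0 CPM at ZT3 and 26.2 to 26.5 CPM at the other times. Per2 had a light minus dark difference of 0.02 (SE 0.12) over both genotypes. No p-value is given for light against dark alone. The test of the whole wave, which also holds the contrast of lights-on and lights-off, passed for none of the 6 members. Its adjusted p in edgeR ran from 0.375 to 0.746. Without both ZT9 libraries the Per1 wave had an adjusted p in edgeR of 0.0534, the smallest of any member under the alternatives. In that fit 1543 of 15423 genes passed, and 5550 had an unadjusted p under 0.05. On the times that were left, the wave terms fit any pattern, so this fit does not test for a 24 h shape.

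Per3 and Ciart were the members whose light minus dark differences lay farthest apart between the genotypes. For Per3 this difference was 0.49 log2 in WT and -0.06 in cKO, and for Ciart -0.62 in WT and 0.01 in cKO. The test of the difference between the waves has 2 residual degrees of freedom and gave an unadjusted p of 0.196 for Per3 and 0.488 for Ciart in edgeR. After adjustment 0 of 6 members passed in edgeR and 0 of 6 in DESeq2, against 0% of all genes in edgeR and 0.847% of the genes to which DESeq2 gave an adjusted p, and at an unadjusted p under 0.05 in edgeR 0 of 6 against 3.08%. The SD of the log2 levels over the 4 times was larger in WT than in cKO for 5 of 6 members, Cry2 being the exception, and for 79.5% of all genes. For Ciart this SD was 0.70 in WT and 0.09 in cKO, for Per3 0.37 and 0.26, and for the median gene 0.32 and 0.21. The WT SD of Ciart came mainly from its low level in the ZT3 library.

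The genes closest in pattern to Per3 and Ciart were sought among the 10265 genes with a mean of at least 10 CPM, by the root-mean-square difference of centred log2 levels over the 8 libraries. The other 4 members varied too little for this (SD over the 8 libraries at or below 0.3). Closest to Per3 were Yod1, which encodes a deubiquitinase, with a difference of 0.125 log2, Chuk, a kinase of the NF-kappaB pathway, with 0.144, and Metap1d, a mitochondrial methionine aminopeptidase, with 0.145. At ZT9 Yod1 stood at 34.1 CPM in WT against 12.8 CPM in cKO, and its other levels were 22.1 to 30.6 CPM (WT) or 12.4 to 20.5 CPM (cKO). Closest to Ciart were Mpv17l with 0.0766, Twistnb with 0.101 and the DNA ligase gene Lig4 with 0.113. Mpv17l was lowest in the WT ZT3 library, with 14.1 CPM, while the other WT libraries held 30.7 to 35.3 CPM and those of cKO 19.3 to 23.7 CPM. These genes were picked as the most alike out of many, and the low WT ZT3 and high WT ZT9 levels they share with Per3 or Ciart are in libraries that held extreme levels often.

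Around the 6 repressors, 47 other clock genes were read in 6 lists, and 0 of them passed the genotype test in edgeR over all genes. Of the 3 activators 0 passed at an unadjusted p under 0.05 and the median log2 difference was -0.11. Clock, the partner of BMAL1, reached 335.4 CPM in the WT ZT9 library, with 102.9 to 139.8 CPM in the other 7 libraries. The 5 nuclear receptors of the second loop had a median of -0.03 and 0 at an unadjusted p under 0.05, with Rora at -0.48 (SE 0.31) and a level of 943.9 CPM in the WT ZT9 library, compared with 231.8 to 398.2 CPM elsewhere. The 2 E-box repressors Bhlhe40 (0.14, SE 0.09) and Bhlhe41 (-0.11, SE 0.09) and the 4 output factors, with a median of -0.03, had 0 as well. The output factor Dbp, which binds the D-box, averaged 127.8 ± 35.3 CPM in the WT libraries and 133.2 ± 36.9 CPM in the cKO ones. The shared 24 h wave passed in edgeR for 0 of the 47 genes, and DESeq2 called 7 of them, Npas2, Nfil3, Dbp, Skp1a, Dyrk1a, Cbx3 and Ddx5, with folds from 1.78 for Ddx5 to 5.51 for Npas2, against a background of 4.48%.

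Of 19 enzymes that modify or degrade PER and CRY proteins, 3 had an unadjusted p under 0.05, of which Skp1a and Ppp1cb were higher in cKO and Usp2 lower, against a background of 21.5%. DESeq2 called Skp1a, a subunit of the ubiquitin ligases that mark PER and CRY, with a DESeq2 log2 difference of 0.78 and an adjusted p of 0.0212, while edgeR gave 0.77 (SE 0.20) and an adjusted p of 0.157. Usp2, a deubiquitinase, stood at 82.5, 161.4, 209.8 and 185.5 CPM in the WT pools and at 86.0, 103.2, 118.5 and 99.3 CPM in the cKO pools (log2 difference -0.58, SE 0.17, adjusted p in edgeR 0.162). Like Ciart, Usp2 was lowest in WT at ZT3 and lower in cKO at the other 3 times. The kinases Csnk1d (-0.09, SE 0.10) and Csnk1e (-0.23, SE 0.11), which phosphorylate PER proteins, were named after their values were seen. Of 14 cofactors of the PER complex 3 were at an unadjusted p under 0.05, each higher in cKO, namely Sin3a (0.35, SE 0.12), Cbx3 (0.42, SE 0.16) and Dhx9 (0.34, SE 0.13), and DESeq2 called 0.

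**Figure D4:**
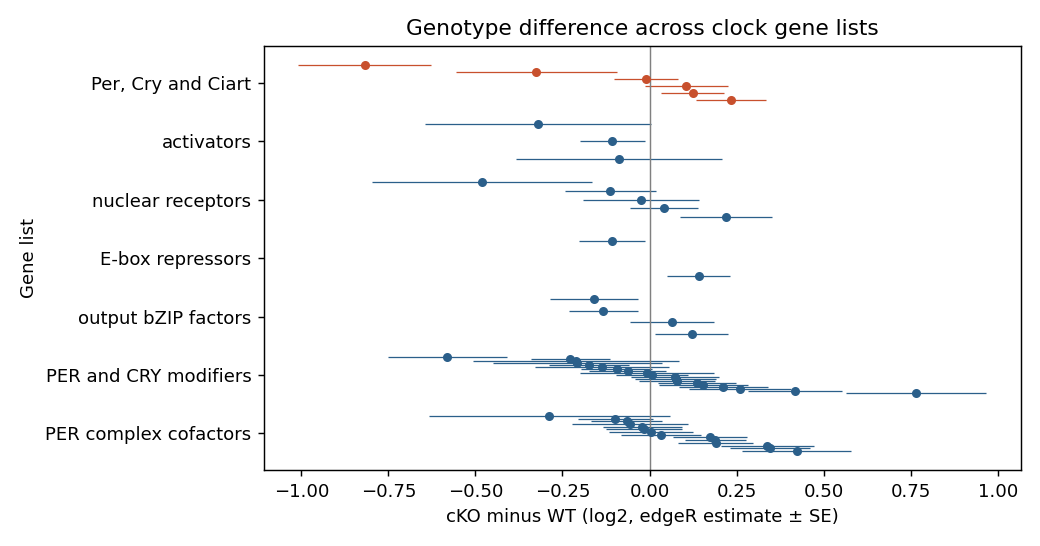
Difference of cKO minus WT in log2 (x axis, edgeR estimate ± SE) for the 6 repressors in orange and the genes of 6 other clock lists in blue (y axis), with 1 point for each gene. Per3 at -0.82 and Skp1a at 0.77 are the farthest from 0.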

How the data were processed

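Raw counts per gene symbol were deposited by the authors with no normalization, as the values show. Aligner, counting program, build, annotation and strand: not given in the sources used here. In 27 of 32544 rows a date stood in place of the symbol, and these (0.123 to 0.145% of a library's counts) were left out. Each of the 8 libraries pools RNA of 3 mice, per the labels' protocols. The genes, lists and tests were chosen with earlier results of these data known.

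Counts were fitted in R 4.3.3 with edgeR 4.0.16 (TMM scaling, low counts filtered with filterByExpr, quasi-likelihood F tests, p-values adjusted after Benjamini and Hochberg over 15373 genes, threshold 0.05). The genotype test had time as a factor (3 residual degrees of freedom), the 24 h wave had genotype (4), and the difference of waves 2. The fits were also run on simulated data with known changes, and the outcome is not given here. DESeq2 1.42.0 and limma 3.58.1 (voom), other scalings, no filter and leaving out libraries were alternatives. Exact permutation tests (scipy 1.17.1) used the 70 arrangements of 8 libraries. Log2 levels carried a prior count of 0.5. Intervals cover counting error only (95%, exact Poisson for levels, Wilson for shares); a member's counts ran from 106 to 1681 per library, a counting error of 2.44 to 9.71%. Named genes were the 6 members, Nr3c1, listed clock genes called by edgeR or DESeq2 or among the 3 smallest p of their list, and the 3 genes closest in pattern to a member with an SD above 0.3; exceptions are marked.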

Additional observations from a re-analysis of the deposited data

Results flagged for a closer look

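Cry1 in the WT library of ZT3 had 35.0 CPM, and its gap to the next WT library was 0.962 of the whole range of the 4 WT libraries, above Dixon's 95% critical value for 4 values. The test was made in 12 groups of 4 libraries, 6 genes in 2 genotypes, and chance alone gives about 1 such result in 20 groups. The cKO library of ZT3 had 35.5 CPM and was also the highest of its genotype.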

How the results depend on the processing

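The count of genes past an adjusted p of 0.05 in edgeR was 0 for the genotype, the shared wave and the difference of waves, with 3310, 2731 and 474 genes at an unadjusted p under 0.05. DESeq2 called 546, 609 and 110 genes for these, and edgeR without a filter on low counts called 7 for the genotype and 3 for the shared wave. Without both ZT9 libraries the shared wave had 1543 calls, with 5550 genes at an unadjusted p under 0.05, and without both ZT3 libraries, a fit of the same form, 0 calls with 409; the cause was not tested. On leaving out 1 library the calls ran from 0 to 0 for the genotype, from 0 to 1 for the shared wave and from 0 to 1442 for the difference of waves, which then has 1 residual degree of freedom. That count was 712, 488, 1442 and 746 without the WT library of ZT3, ZT9, ZT15 and ZT21, and 1, 0, 1 and 1 without the cKO library of these times; the cause was not tested. Per3 kept a negative log2 difference under all 17 alternatives (-1.002 to -0.56), with an adjusted p from 0.0119 (DESeq2, the 1 alternative in which it passed) to 0.371. Ciart ran from -0.61 (without the cKO ZT3 library) to -0.15 (without the WT ZT21 library) and Cry1 from 0.05 (total counts only) to 0.32 (without both ZT3 libraries). Per1, at -0.01, took the other sign with DESeq2-type size factors (0.0035), without the filter (0.0078), in DESeq2 (0.0031), without both ZT3 libraries (0.025) and on leaving out 1 library (-0.0448 to 0.0292). With total counts only, Per1 was -0.20, Per2 was -0.0796 and Cry2 -0.0605, and the median of all genes moved by -0.184. The genotypes were paired by time through time as a factor, and the labels give no other pairing. An exact test that swaps genotypes within times could not give a p below 0.125. Without time as a factor Per3 was at -0.84. No 24 h wave of a member passed under any alternative run.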
